A study of Mus musculus with 1 sample.

Results

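Interferons are secreted proteins that warn cells of infection. They bind receptors that act through JAK kinases, STAT factors and interferon regulatory factors (IRFs) and switch on a large set of genes whose products attack viruses, bacteria and parasites inside the cell. Part of these products are GTPases that gather on the vacuoles of microbes, and others cut, edit or bind foreign nucleic acid, tether viruses at the membrane or modify proteins. Macrophages are known to keep some of these genes on at a basal level and to raise many of them strongly after infection or interferon.

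The 76 genes described here are those whose symbol in the platform annotation names a guanylate-binding protein, an immunity-related GTPase, Mx, OAS, IFIT, IFITM, Ifi, Isg, Parp9 to Parp14, Apobec or Schlafen gene, or one of Adar, Bst2, Rsad2, Samhd1, Xaf1 and Zbp1. They are read by 80 of the 23473 gene probes, and the array names 19321 genes in all. The choice used names only, so it takes some relatives that are not known as interferon-induced antiviral genes, such as Apobec2 of muscle and Ifitm5 of bone.

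The sample was parental RAW264.7, a mouse macrophage-like line of male origin, grown in RPMI with fetal calf serum. The study set it against lines made from it with the mutagen ENU and sorted for failure to take up fluorescent peroxiredoxin, and those lines were not analysed here. The parental cells had no added interferon or microbe in the labels. There is 1 array and no replicate, so the number of arrays limits every value, no difference was tested and no p-value is given.

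Signal is the median brightness of a spot in the Cy5 channel, in arbitrary units. A gene takes its highest probe. The blank limit, 22.98, is the mean of the empty spots plus 2 SD, and 72.8% of all named genes passed it. A second, higher line is drawn from probes of smell and taste receptors, which a macrophage line has little known use for. It is their 95th percentile, 55.8, is called the receptor limit, and was passed by 42.7% of all named genes. Of the smell and taste receptor genes, 37.3% passed the blank limit, so passing that limit alone does not show that a gene is expressed. Signal also depends on the probe, so genes are set against these limits and not ranked against each other. As a check of the label, 9 of 10 macrophage markers passed the receptor limit, with Csf1r at 642 and Mertk between the limits at 23.3. Of 32 markers of plasmacytoid dendritic, T, NK, B, fibroblast, endothelial and epithelial cells and neutrophils that are in no other list here, 18 were over the blank limit and 2 over the receptor limit, namely the neutrophil genes S100a8 at 60.2 and Ly6g at 66.7.

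In all, 58 of the 76 were over the blank limit, or 76.3% (exact Clopper-Pearson 95% interval 65.2 to 85.3, which counts genes as draws), and 32 passed the receptor limit, or 42.1% (30.9 to 54.0). Both shares lie near those of all named genes, and the intervals hold them. With 76 genes the intervals are wide and cannot show that the set matches the array. Its median signal was 42.3, against 40.1 over all named genes. Over 10 times the blank limit lay 11 of the 76 genes, or 14.5%, against 20.9% of all named genes. Within the set, the 3 GTPase families together passed the receptor limit in 4 of 18 genes, or 22.2% (6.41 to 47.6), and the other families in 28 of 58, or 48.3% (35.0 to 61.8). Those intervals overlap, and the difference was not tested. Members and families were chosen with earlier results of these data known, so intervals over them do not measure a difference. In each of the 12 families the interval at the receptor limit held the 42.7% of all named genes. At the blank limit only the guanylate-binding proteins, at 33.3% (7.49 to 70.1), had an interval without the 72.8%. With local background subtracted from members and receptor probes alike, 30 of the 76 passed the receptor limit of that setting, without Adar, Ifi203 and Parp14 and with Oas1c.

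**Figure D1:**
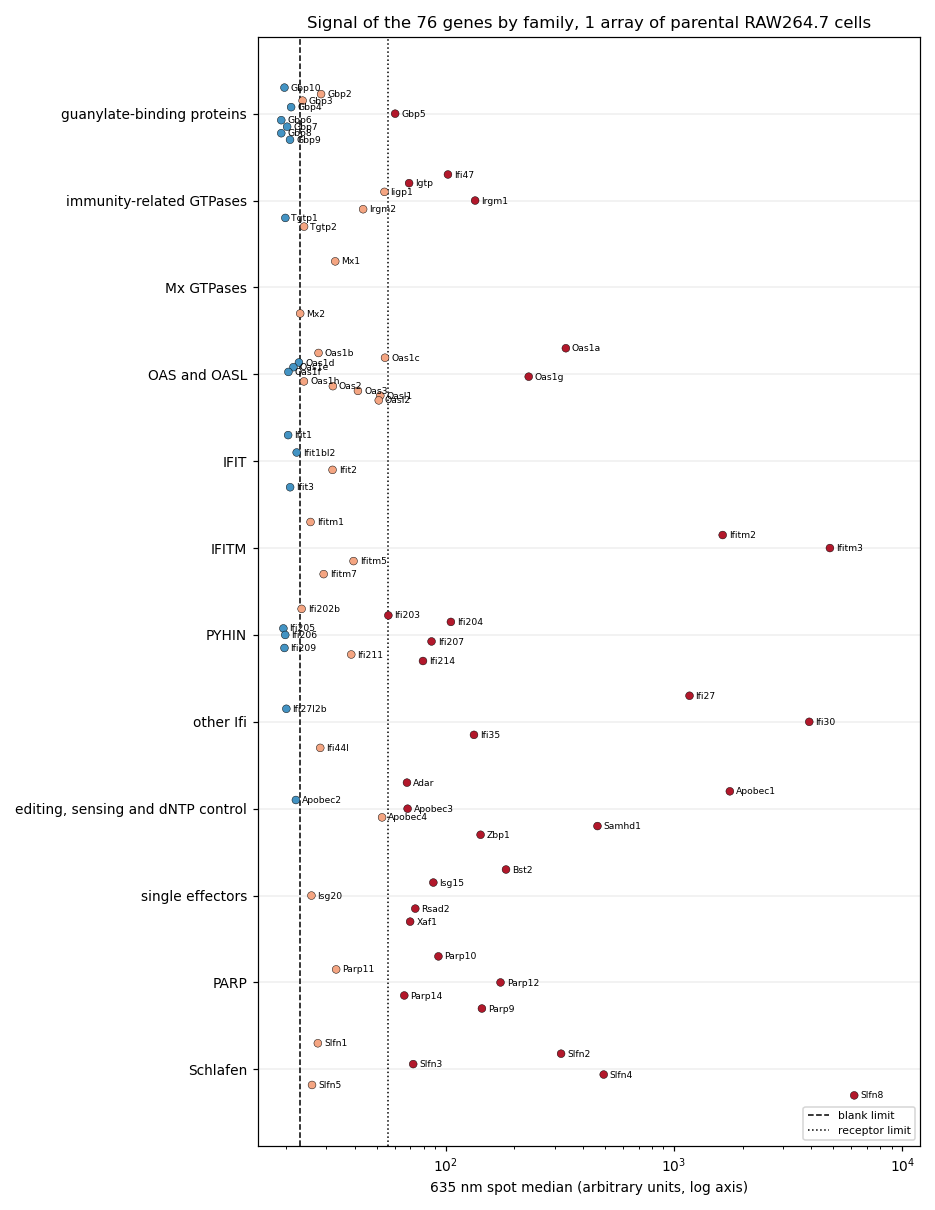
Signal of each of the 76 genes (highest probe, arbitrary units, log axis) on the 1 array, in rows by family, with dashed and dotted lines at 22.98 and 55.8 for the blank and receptor limits. Red points passed the receptor limit, orange points lie between the limits and blue points did not pass the blank limit. Among the guanylate-binding proteins 6 of 9 points are blue, while the Mx, IFITM, single effector, PARP and Schlafen rows hold no blue point.

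Guanylate-binding proteins, large GTPases that coat the vacuoles and membranes of microbes, gave little signal. The blank limit was passed by 3 of 9, against 72.8% of all named genes, and the receptor limit by 1, against 42.7%. Gbp5, which is known to promote inflammasome assembly, read 60.0, and Gbp2, which is recruited to the vacuole of Toxoplasma, lay between the limits at 28.4. Gbp3 was just over the blank limit at 23.6, within 1 blank SD (1.18) of it. Gbp4 (21.0), Gbp6 (19.0), Gbp7 (20.2), Gbp8 (19.0), Gbp9 (20.8) and Gbp10 (19.6) did not pass. These 6 genes passed in none of the 13 settings of the limit and signal that were run, while Gbp5 passed in each. The genes are close relatives, and whether a probe reads a neighbour's transcript was not tested.

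Immunity-related GTPases also act at microbial vacuoles. Of 7 genes, 6 lay over the blank limit and 3 over the receptor limit, beside 72.8% and 42.7% of all named genes. Irgm1 read 134, and the probes of Igtp, known as Irgm3, read 69.1 and 58.8. Both belong to the regulatory branch of the family, which is known to hold the effector branch in check on the cell's own membranes. Their relative Irgm2 lay between the limits at 43.4. Among effector GTPases, Ifi47 read 102 and Iigp1 lay between the limits at 53.9. Tgtp2 was within 1 blank SD of the blank limit at 23.9, and its near-copy Tgtp1 did not pass at 19.8. Mx proteins are dynamin-like GTPases that act on incoming virus. Mx2 read 23.0, less than 1 blank SD over the blank limit, and the probes of Mx1 read 32.8 and 20.7, on either side of it. Mx1 is known to be broken in most inbred mouse strains. The platform pairs Mx2 and the Mx1 probe of 32.8 with non-coding transcript entries, as it does Oas1b and Oas1g.

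**Figure D2:**
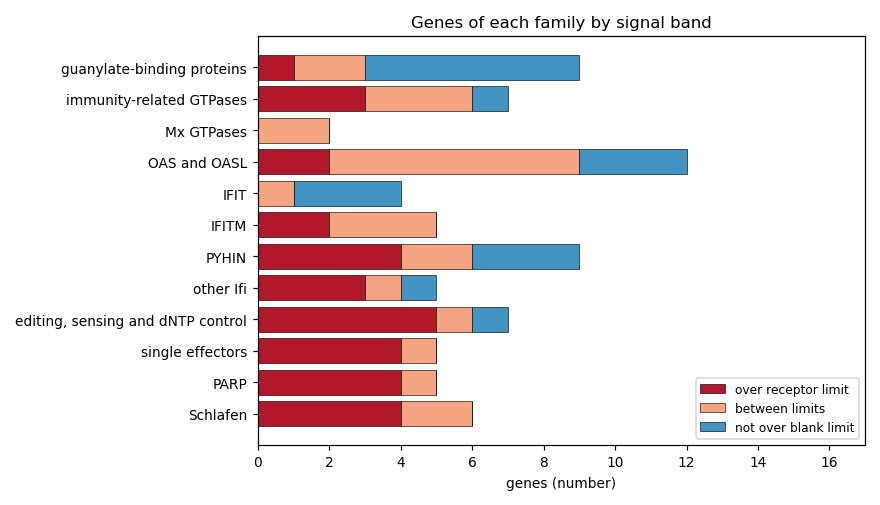
Number of genes of each family over the receptor limit (red), between the limits (orange) and not over the blank limit (blue). Single effectors and PARP genes have 4 of 5 genes in red, and the Mx and IFIT rows have none.

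The OAS family includes enzymes that make short chains of adenylate, which switch on the nuclease RNase L. Of 12 genes, 9 lay over the blank limit, 2 of them over the receptor limit as well. The shares of all named genes were 72.8% and 42.7%. Oas1a read 336 and Oas1g read 231. Their transcripts are close copies, so either probe may have read both. Oasl1, which is known to restrain Irf7, and Oasl2 lay between the limits at 51.6 and 50.8. Oas1c (54.2), Oas3 (41.2), Oas2 (32.0), Oas1b (27.7) and Oas1h (23.9) also lay between them. The spot of Oas1b read below its local background of 28.8, and Oas1h was within 1 blank SD of the blank limit. Oas1b is the gene of flavivirus resistance in mice. Oas1d (22.7), Oas1e (21.5) and Oas1f (20.4) did not pass, and Oas1d did pass the limit of 22.6 set from the negative controls.

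IFIT proteins bind viral RNA whose cap or end differs from the cell's own. Ifit2 was the 1 of 4 genes over the blank limit, at 31.9, while Ifit1 read 20.4, Ifit3 read 20.8 and Ifit1bl2 read 22.2. None of the 4 passed the receptor limit. IFITM proteins, which hinder the fusion of viruses with cell membranes, all passed the blank limit. Ifitm3 read 4827, or 210 times that limit, over a local background of 911. Ifitm2 read 1636, or 71.2 times, over a local background of 975. With normexp background correction these multiples were 59.0 and 10.7. It adds an offset of 50 to probes and blanks alike, which by itself draws multiples toward 1. Ifitm1 at 25.5, Ifitm7 at 29.2 and the bone gene Ifitm5 at 39.4 lay between the limits, Ifitm5 over a local background of 31.9.

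PYHIN proteins bind DNA or form part of the response to it, and in mice their genes are many and alike. Of 9 genes named Ifi2xx, 6 lay over the blank limit and 4 over the higher line, beside 72.8% and 42.7% of all named genes. Ifi204 read 105, Ifi207 read 86.6, Ifi214 read 79.5, and Ifi203 was just over the receptor limit at 56.0. Ifi211 at 38.5 and Ifi202b at 23.3 lay between the limits. Ifi205 read 19.4, Ifi209 read 19.6, and the 2 probes of Ifi206 read 19.8 and 18.2. These 3 genes passed in none of the 13 settings. Other Ifi genes ranged widely. Ifi30, the lysosomal thiol reductase GILT that helps to process antigens, read 3919 over a local background of 880. Ifi27, of the mitochondrial membrane, read 1170 over a local background of 367. Ifi35, a partner of Nmi, read 133 over a local background of 69.1. Ifi44l lay between the limits at 28.2, and Ifi27l2b did not pass at 20.01.

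Genes for enzymes that edit nucleic acid, starve viruses of nucleotides or sense viral nucleic acid passed the receptor limit in 5 of 7 cases. This share, 71.4% (29.0 to 96.3), has an interval that holds the 42.7% of all named genes. Apobec1, which edits the messenger of apolipoprotein B, read 1758, and Apobec3, which mutates retroviral DNA, read 68.0. Samhd1, which breaks down the deoxynucleotides that reverse transcription needs, read 462. Zbp1, a sensor of nucleic acid in the left-handed Z form that can start necroptosis, read 142. Adar, which turns adenosine into inosine in double-stranded RNA, read 67.6 over a local background of 41.3. Apobec4, known from testis, lay between the limits at 52.6 over a local background of 42.3, and Apobec2 did not pass at 22.0.

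Of the single effectors, 4 of 5 passed the receptor limit, or 80.0% (28.4 to 99.5), against 42.7% of all named genes. Bst2, the tetherin that holds budding virus at the surface, read 184. Isg15, the ubiquitin-like modifier, read 88.2 over a local background of 47.5. Rsad2, the enzyme viperin, read 73.5, and Xaf1, which promotes cell death, read 69.8. The exonuclease gene Isg20 lay between the limits at 25.8. PARP genes, whose products attach ADP-ribose to proteins, passed the receptor limit in 4 of 5 cases. Parp12 read 174. Parp9 read 144 over a local background of 114, and Parp10 read 92.9 over one of 63.6. With normexp, Parp9 stood at 1.36 and Parp10 at 1.35 times the blank limit of that setting, against 6.27 and 4.04 times without it. Parp14 read 65.8 on the probe over the receptor limit, which it did not pass with local background subtracted, and 21.9 on the other, which did not pass the blank limit. Parp11 lay between the limits at 33.1.

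Schlafen genes, a family tied to cell growth, quiescence of immune cells and restriction of viruses, all passed the blank limit. The receptor limit was passed by 4 of 6, or 66.7% (22.3 to 95.7). For all named genes the shares were 72.8% and 42.7%. Slfn8 read 6170, or 268 times the blank limit, over a local background of 587, and stood at 83.7 times with normexp. Slfn4 read 492, Slfn2, which is known to keep T cells and monocytes quiescent, read 320, and Slfn3 read 72.0. Slfn1 at 27.5 and Slfn5 at 25.9 lay between the limits. Where probes of such similar genes bind each other's transcripts, single readings are uncertain.

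Many of the promoters hold the same element. The interferon-stimulated response element (ISRE) is a site that interferon regulatory factors bind. It was searched on both strands, as GAAA and GAAA with 2 bases of any kind between, in the RefSeq promoters of mouse assembly GRCm38.p6, which cover 250 bases before the start and a short stretch after it. A promoter was given for 57 of the 76 genes, and 31 of these hold the motif, or 54.4%. Of the 15113 genes on the array with a promoter, 594 hold it, or 3.93%. The gamma-activated site, searched as TTC and GAA with 3 bases of any kind between, which reads the same on both strands, is in 16 of the 57, or 28.1%, and in 8.99% of genes on the array. Of the 57, 10 hold both motifs, and in Bst2, Ifitm3 and Parp11 matches of both overlap. No promoter was matched for Gbp4, Gbp6, Gbp8, Gbp9, Gbp10, Ifi27, Ifi27l2b, Ifi204, Iigp1, Mx1, Mx2, Oas1b, Oas1d, Oas1e, Oas2, Parp9, Parp10, Parp14 and Zbp1. The ISRE motif was present in 4 of 4 guanylate-binding genes with a promoter, 5 of 6 immunity-related GTPases, 6 of 8 PYHIN genes and 3 of 4 IFIT genes. It was in 3 of 5 single effectors, 4 of 8 OAS genes, 1 of 2 PARP genes, 2 of 5 IFITM genes, 2 of 6 Schlafen genes, 1 of 6 editing and sensing genes and 0 of 3 other Ifi genes. Differences between families were not tested. A match is a description of letters and shows no binding.

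The motif was found in members on both sides of both limits. Of the 31 members with it, 15 passed the receptor limit and 24 the blank limit, or 48.4% and 77.4%. Of the 26 members without it, 11 and 23 passed, or 42.3% and 88.5%. Of the 10 members with a promoter that did not pass the blank limit, 7 hold the motif. Over all array genes with a promoter, 42.3% of those with the motif and 43.8% of those without it passed the receptor limit.

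**Figure D3:**
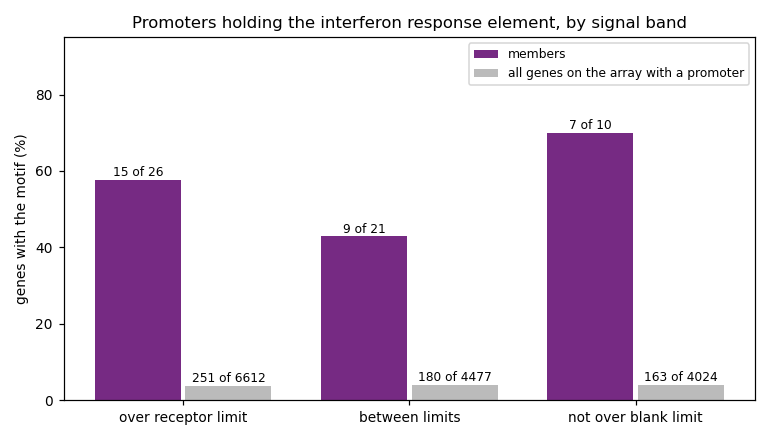
Share of genes whose promoter holds the ISRE motif (percent, bars from 0) among the members (purple) and all array genes with a promoter, members included (grey), in the 3 signal bands; the numbers over the bars are genes. The purple bars are 57.7%, 42.9% and 70.0%, and the grey bars are 3.80%, 4.02% and 4.05%.

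The windows below are shown because they hold the motif in genes on both sides of the limits. Each is read 5′ to 3′ on the strand of its gene in GRCm38.p6, ends at or before the start site, and has the motif nearest the start in capitals. It reads TTTC and TTTC where the motif lies on the opposite strand.
Gbp5, chr3:142496749-142496798 (+): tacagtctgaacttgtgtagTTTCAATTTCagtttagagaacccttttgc
Gbp2, chr3:142620584-142620633 (+): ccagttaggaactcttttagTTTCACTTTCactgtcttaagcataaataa
Gbp7, chr3:142530263-142530312 (+): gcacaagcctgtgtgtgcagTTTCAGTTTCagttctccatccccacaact
Igtp, chr11:58199502-58199551 (+): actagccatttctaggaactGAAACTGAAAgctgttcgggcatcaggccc
Irgm2, chr11:58214893-58214942 (+): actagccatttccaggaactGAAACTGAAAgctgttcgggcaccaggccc
Irgm1, chr11:48871421-48871464 (-): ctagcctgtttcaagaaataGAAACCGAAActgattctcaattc
Tgtp1, chr11:48992294-48992343 (-): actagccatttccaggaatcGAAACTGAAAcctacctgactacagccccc
Tgtp2, chr11:49064253-49064302 (-): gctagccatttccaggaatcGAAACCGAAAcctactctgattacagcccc
Oas1a, chr5:120907526-120907559 (-): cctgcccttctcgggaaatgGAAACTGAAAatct
Oas1g, chr5:120887614-120887645 (-): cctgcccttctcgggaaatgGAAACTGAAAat
Ifit1, chr19:34640784-34640833 (+): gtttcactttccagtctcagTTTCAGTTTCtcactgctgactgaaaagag
Ifit1bl2, chr19:34640765-34640814 (-): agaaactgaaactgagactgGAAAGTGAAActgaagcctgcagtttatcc
Ifit3, chr19:34583387-34583436 (+): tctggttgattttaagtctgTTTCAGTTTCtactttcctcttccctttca
Isg15, chr4:156200855-156200904 (-): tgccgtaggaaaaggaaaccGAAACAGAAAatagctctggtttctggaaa
Rsad2, chr12:26456543-26456592 (-): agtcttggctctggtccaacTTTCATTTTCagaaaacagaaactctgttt
Bst2, chr8:71537567-71537616 (-): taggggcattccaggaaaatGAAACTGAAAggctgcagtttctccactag
Ifitm2, chr7:140955978-140956027 (-): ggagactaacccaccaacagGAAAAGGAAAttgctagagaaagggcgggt
Ifi207, chr1:173741821-173741870 (-): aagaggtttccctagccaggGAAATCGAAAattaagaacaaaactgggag
Ifi211, chr1:173913054-173913103 (-): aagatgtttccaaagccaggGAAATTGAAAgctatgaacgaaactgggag
Ifi205, chr1:174031860-174031909 (-): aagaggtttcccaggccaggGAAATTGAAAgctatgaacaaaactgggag
Slfn8, chr11:83020829-83020878 (-): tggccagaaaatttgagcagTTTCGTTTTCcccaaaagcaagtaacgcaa

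Windows of close relatives were alike to different degrees, and their signals lay in the same or in different bands. Those of Oas1a and Oas1g are alike in 32 of 32 bases, and both genes passed the receptor limit. Those of Igtp and Irgm2 are alike in 48 of 50 bases, and Igtp passed the receptor limit while Irgm2 lay between the limits. Those of Tgtp1 and Tgtp2 are alike in 46 of 50 bases when gaps are allowed and in 38 position by position, and Tgtp1 did not pass the blank limit while Tgtp2 lay just over it. Those of Ifi207 and Ifi211 are alike in 42 of 50 bases, and Ifi207 passed the receptor limit while Ifi211 lay between the limits. The windows of Ifi206 and Ifi214 are alike in 36 of 50 bases, and Ifi206 did not pass the blank limit while Ifi214 passed the receptor limit. Ifit1 and Ifit1bl2 lie head to head, and their windows cover 31 of the same genomic bases. Neither gene passed the blank limit. In 30 members the motif lies wholly before the start site, with the nearest match 2 to 155 bases away (median 51.5), and in 23 of them within 100 bases. In Ifitm3 it lies elsewhere in the promoter window, and no window is printed for it.

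Many members lie side by side in the genome, as the RefSeq gene order shows, and neighbours fell in different bands. The 5 neighbours Gbp8, Gbp9, Gbp4, Gbp10 and Gbp6 were all at or below 21.0 and did not pass, while of Gbp5, Gbp7, Gbp3 and Gbp2 in the other run 3 passed. In the Schlafen run, Slfn8 and Slfn2 passed the receptor limit beside Slfn5 and Slfn1, which did not. In the Ifitm run Ifitm2 and Ifitm3 passed it and Ifitm1, which lies between them, did not. The run of 9 OAS genes held 2 over the receptor limit, Oas1g and Oas1a, which are next to each other. Of all named genes, 42.7% passed that limit. In the Ifit run 1 of 4 genes passed the blank limit, in the Ifitm run 4 of 4 and in the Schlafen run 6 of 6, against 72.8% of all named genes.

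**Figure D4:**
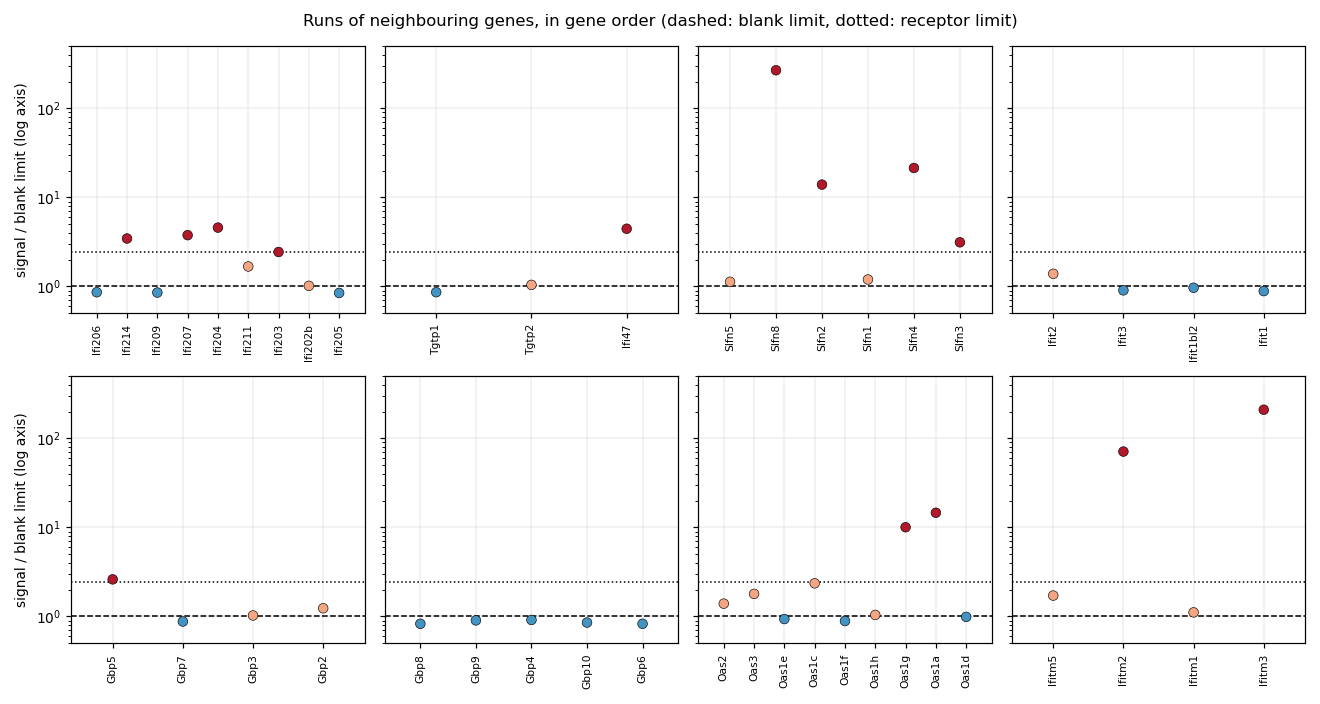
Signal over the blank limit (log axis) of members in 8 runs of neighbouring genes, each in gene order along the chromosome with at most 2 other protein-coding genes between members; dashed and dotted lines mark the blank and receptor limits. The Gbp run from Gbp8 to Gbp6 lies wholly under the dashed line, and the Schlafen and Ifitm runs lie wholly over it.

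The other genes of the interferon system show what stands around the members. Among 67 measured genes of a list of ligands, receptors, signalling genes, IRFs, sensors, brakes and other induced genes, 61 were over the blank limit, 91.0% (81.5 to 96.6), and 45 over the receptor limit, or 67.2% (54.6 to 78.2). Their median was 104. For the members these shares were 76.3% and 42.1%, and for all named genes 72.8% and 42.7%. The list was chosen with earlier results of these data known, so its intervals do not measure a difference from the members. The difference was not tested.

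The receptors for type I and type II interferon gave signal in both chains. Ifnar1 read 119 and Ifnar2 read 101, Ifngr1 read 454 and Ifngr2 read 255. Of the type III receptor, Il10rb read 266 while the specific chain Ifnlr1 did not pass at 22.1. All 5 signalling genes passed the receptor limit (47.8 to 100), among them Jak1 at 469, Jak2 at 171, Tyk2 at 179 and Stat2 at 65.6. All 8 IRF genes lay over the blank limit (63.1 to 100) and 5, or 62.5% (24.5 to 91.5), also over the receptor limit. The shares of all named genes at these limits were 72.8% and 42.7%. Both lists were chosen with earlier results known, so their intervals measure no difference from those shares. Among the 5 IRF genes were Irf3 at 233, Irf8 at 370, Irf1 at 122 and Irf9, a partner of Stat2, at 84.5. Irf7, which drives the later wave of interferon genes, lay between the limits at 35.8, as did Irf2 and Irf4 at 34.9 and 31.0.

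Of 8 interferon ligands measured, 5 were over the blank limit and 1 over the receptor limit, or 62.5% (24.5 to 91.5) and 12.5% (0.316 to 52.7), intervals that hold the 72.8% and 42.7% of all named genes. The 1 was Ifna1 at 153. Ifnb1 lay between the limits at 27.6, as did Ifng at 23.6, within 1 blank SD of the blank limit. The 4 ligands between the limits stood at 1.03 to 1.29 times the blank limit. Ifna2, Ifna4 and Ifnk read 21.9, 19.6 and 18.7 and did not pass. Interferon alpha genes are near-copies, so the Ifna1 reading is uncertain. All 12 sensors and adaptors lay over the blank limit (73.5 to 100) and 9, or 75.0% (42.8 to 94.5), also over the receptor limit. Among the 9 were the RNA sensor Ddx58 (RIG-I) at 80.6, its relative Dhx58 (LGP2) at 57.1 and the DNA sensor Cgas at 152. Ifih1, Tlr3 and Ticam1 lay between the limits at 50.05, 25.2 and 37.2. The brakes lay over the blank limit in 6 of 6 cases (54.1 to 100) and over the receptor limit in 4, or 66.7% (22.3 to 95.7). Usp18, which removes Isg15 and blocks the receptor, read 70.2, and Socs1 lay between the limits at 33.5. Of 22 induced genes outside the members, 20 were over the blank limit, or 90.9% (70.8 to 98.9), and 16 over the receptor limit, or 72.7% (49.8 to 89.3). Beside the sensors, brakes and induced genes stand the 72.8% and 42.7% of all named genes. These lists were chosen with earlier results known, so their intervals measure no difference from those shares. Eif2ak2, the RNA-dependent kinase PKR, read 68.0 and the chemokine Cxcl10 read 85.8. Cmpk2, the gene beside Rsad2, did not pass at 19.7, and Ddx60 read 22.2.

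**Figure D5:**
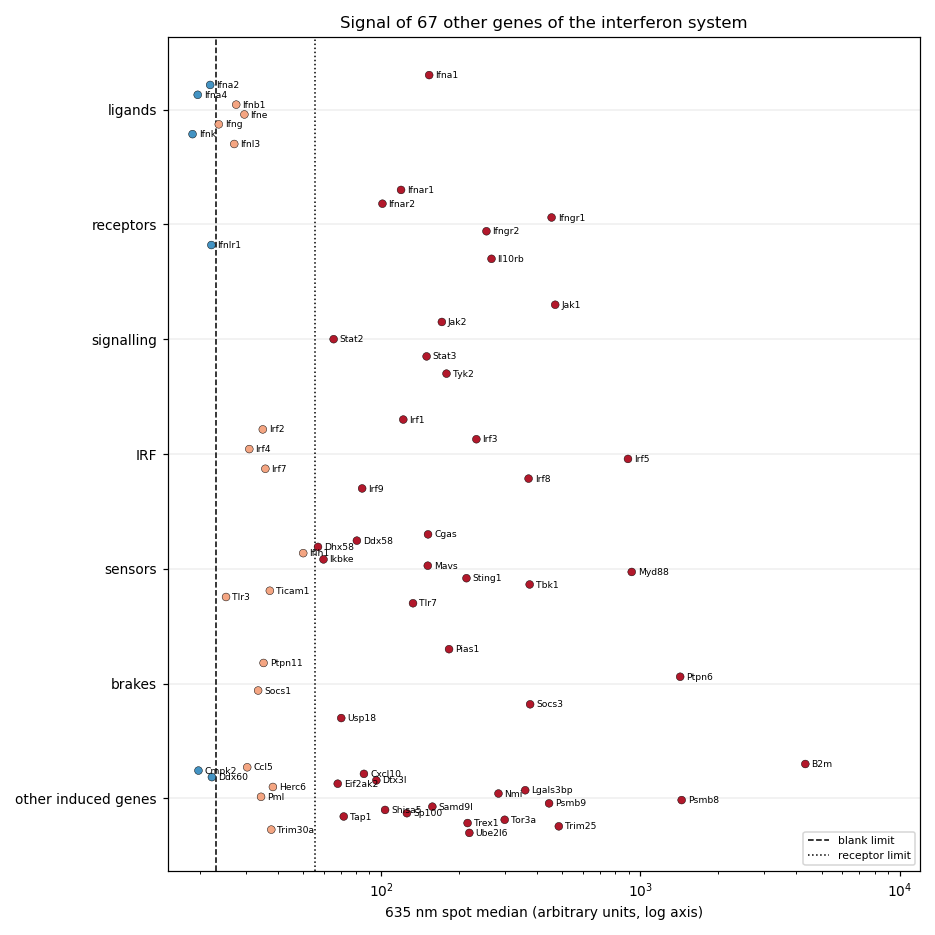
Signal (highest probe, arbitrary units, log axis) of 67 other genes of the interferon system in rows by role, with dashed (blank) and dotted (receptor) limits. The signalling row lies wholly over the dotted line, and the ligand row has 1 point over it.

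In the authors' deposited table of processed values the same 58 genes have a value, and 21 of the 80 member probes have an empty cell. Those values follow the scanner values of the same array, so the match is no separate check. Slfn8 stands at 2987 there, Ifitm3 at 2335 and Ifi30 at 1894, on a scale that follows the spot median minus the blank mean times 0.486.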

How the data were processed

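One array of parental RAW264.7 cells was read. Total RNA was amplified to amino allyl RNA and labelled with Cy5, per the labels' protocols. The scanner table holds spot and local background median intensity from a scan at 3 gains, per the file headers; the step that combined the gains is not stated there. The second table, deposited by the authors, holds processed intensity with its scale unstated; its values were matched to the scanner values. The array has 27456 spots, of which 0 were flagged, and 20690 probes have 1 gene symbol, 2783 none and 0 several. Of the named probes, 20556 matched RefSeq (GRCm38.p6).

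Signals are spot medians without background subtraction, with spots of a probe averaged and a gene taking its highest probe. The blank limit is the mean plus 2 SD of 2464 blanks after trimming 5% at each end (mean 20.6, SD 1.18). For the receptor limit, the 95th percentile of 1221 receptor probes was taken, and 37.3% of the receptor genes passed the blank limit. Calls at the blank limit were tested on data simulated from the mean and SD of the blanks. The receptor limit was not tested in this way. Python 3.11.15, pandas 2.3.3, scipy 1.17.1 and limma 3.58.1 (normexp, offset 50) were used. The rule for the members used names only, and the members, families and lists were chosen with earlier results of these data known. By rule every member may be named, and from the pathway list the receptors, Stat2, Irf3, Irf7, Irf9 and up to 4 further genes of each role on each side of the receptor limit, in alphabetical order; only part of these are printed. The cell type markers named were chosen after their values were seen. Protein features were planned and not analysed here. Local background was used in alternatives and where printed. Windows were compared base by base and by global alignment. Intervals count genes and cover no difference between arrays.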

Additional observations from a re-analysis of the deposited data

How the results depend on the processing

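With 1 array, these settings show only how calls move. The receptor limit, a higher limit by construction, lowered the members over the limit from 58 to 32 and the families with at least as many members over as not over it from 10 to 5. The other 11 settings of the limit or signal kept the members between 51 and 61 of 76, and the share of all named genes between 63.2% and 77.2%. Choosing members by updated symbols changed no symbol. Of the members, 31 passed in all 13 settings and 15 in none. Local background subtraction and normexp each left 51, losing Gbp3, Ifi202b, Ifitm7, Isg20, Mx1, Oas1b and Tgtp2. Both start from the same spot and background values, so they are not separate checks of each other. The limit of 3 SD lost Gbp3, Ifi202b, Mx2, Oas1h and Tgtp2. Requiring all probes lost Mx1 and Parp14. The block limit lost Gbp3 and gained Apobec2, Ifit1bl2 and Oas1d. Of 144 family counts, 14 moved by over 1.5 times, 6 of them with the receptor limit. Within 1 blank SD of the blank limit lay 8 members. Subtracting local background, or normexp, with the receptor limit set in the same way, was added after the data were seen and moved the members over that limit from 32 to 30 in each case.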
